A study of Mus musculus with 2 samples.

Results

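The genes described here are the mouse genes of the major histocompatibility complex (MHC), whose symbols begin with H2-. They were taken from a one-colour Agilent whole mouse genome array as every non-control probe with a gene name starting with H2-. This gave 36 genes of the 27962 gene names on the array, measured by 55 probes of 41174. Of these, 9 were class II genes (names in H2-A, H2-E, H2-DM and H2-O), 24 were class I genes (names in H2-K, H2-D, H2-Q, H2-T and H2-M other than H2-DM), and 3 belonged to neither class.

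Liver RNA came from male apoE-KO mice on the C57BL/6 strain, which lack apolipoprotein E in every group and are a model of raised blood cholesterol. From 10 weeks of age the mice ate normal chow, or that chow with 1.25% cholesterol added (the high-Chol diet), during 1 week, with 3 arrays for each diet from independent experiments. How many mice each array stands for is not given in the sources used here. The p-values below measure the spread between these arrays. The probe for Apoe, the targeted gene, read log2 1.66 to 3.81 on the 6 arrays. Its place relative to the disrupted part of the gene is not given in the sources used here, so it checks no label. Values are log2 of the background-subtracted spot intensity minus the log2 of the 75th percentile of the same array, so 0 is the level of that percentile and a difference of 1 is 2-fold.

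The arrays lay on 2 slides. Slide 1 held the 3 normal chow arrays and 1 high-Chol array (position 4), and slide 2 held the other high-Chol arrays (positions 2 and 3), which were read with an older version of the extraction software. The 75th percentile of the raw signal was 271 to 373 on slide 1 and 762 to 799 on slide 2, and 50.5% to 67.2% of spots were well above background. The 6 hepatocyte markers with a value on every array, Alb and Ttr among them, had a mean of 6.71 to 7.04. Over 16726 genes tested, 450 were higher and 38 lower under the high-Chol diet by limma at an adjusted p under 0.05. These counts were 42 and 0 without the normal chow array at position 2, and 3156 and 787 of 17750 without the high-Chol array of slide 1. With each array scaled to its median and a floor of 5 on the signal (median scaling below), the split was 333 and 74. The median log2 difference of all genes tested (high-Chol diet minus normal chow, as for every difference below) was -0.02 on the 75th percentile scale, -0.26 with median scaling, and -0.11 with a normexp background.

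MHC class II molecules are pairs of an alpha and a beta chain that show peptides from the endocytic route to CD4 T cells. They are made mainly by macrophages, dendritic cells and B cells. The invariant chain Cd74 guides them through the cell, H2-DM exchanges their peptides and H2-O restrains H2-DM. MHC class I molecules are carried by nearly all cells, pair with beta 2-microglobulin (B2m) and show peptides from the cytosol to CD8 T cells. Hepatocytes in addition make H2-Q10, a secreted class I molecule found mostly in liver.

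The array reads each gene through 60-base probes, and the probes below are shown as examples of what was read for class II genes and of how far the class I probes can tell their genes apart. The class II probes are those whose values stand for the gene, except that for H2-Ab1, which is one of 4 and not the brightest. In the class I probes, capitals mark the unbroken run that the probe has in common with the probe of another H2- gene. Positions follow the mm7 annotation in the headers of the scanner files and are all on chromosome 17, and the probes at H2-Eb1, H2-DMa, H2-Q5 and H2-T23 span an intron.
H2-Aa, chr17:32362310-32362369, minus strand: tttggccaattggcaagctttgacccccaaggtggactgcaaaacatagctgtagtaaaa
H2-Ab1, chr17:32345268-32345327, plus strand: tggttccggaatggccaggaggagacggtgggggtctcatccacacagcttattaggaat
H2-Eb1, chr17:32392430-32392891, plus strand: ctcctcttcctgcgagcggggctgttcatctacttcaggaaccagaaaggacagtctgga
H2-DMa, chr17:32217439-32218002, plus strand: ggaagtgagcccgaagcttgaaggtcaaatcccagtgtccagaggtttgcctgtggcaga
H2-DMb2, chr17:32228917-32228976, plus strand: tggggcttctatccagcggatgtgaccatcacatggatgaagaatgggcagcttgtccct
H2-Q10, chr17:33574106-33574165, plus strand: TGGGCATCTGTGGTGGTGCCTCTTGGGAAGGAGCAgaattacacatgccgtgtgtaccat
H2-Q5, chr17:34255077-34255511, minus strand: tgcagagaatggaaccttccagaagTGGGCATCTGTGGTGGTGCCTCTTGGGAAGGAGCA
H2-T23, chr17:34134435-34134671, minus strand: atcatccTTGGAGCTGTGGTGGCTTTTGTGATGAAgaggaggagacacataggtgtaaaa

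The probes of H2-Q10 and H2-Q5 had 35 bases in a row in common, and the H2-T23 probe had 28 in common with that of H2-Q7. The annotation places the H2-Q5 probe near that of H2-T10 (34262303-34262362), apart from those of H2-Q7 (33494682-33494913) and H2-Q10. The brightest H2-Q1 probe (33480880-33480939) lies apart from the others of that name (33416924-33418496 and 33420381-33420440). Of the 35 class I probes, 9 held a run of 18 or more bases found in a probe of another name, against 0 of the 15 class II probes. Class I values are therefore given with the limit that their transcripts cannot be told apart fully by these probes.

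Class II genes were higher in the liver of mice under the high-Chol diet. Of the 9 class II genes, 7 entered the test, for which a probe had to be well above background on all 3 arrays of 1 diet or of both, and 6 of these were called higher, 1.93-fold to 3.15-fold, with no overlap between the diets. The 6 were H2-Aa and H2-Ab1 (the chains of I-A), H2-Eb1 (the beta chain of I-E), and H2-DMa, H2-DMb1 and H2-DMb2 (the chains of H2-DM). Among all genes tested, 2.69% were called higher, and 11.9% of the genes with 6 values had all high-Chol arrays above all normal chow arrays. No class II gene was called lower, against 0.227% of all genes. The median log2 difference of the 7 genes was 1.35, beside -0.02 over all genes tested.

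H2-Aa, the alpha chain of I-A, read -0.89, -0.95 and -0.98 with normal chow and 0.53, 1.01 and 0.61 with the high-Chol diet (in the order slide 1 position 4, slide 2 position 2, slide 2 position 3, as below). Every high-Chol array was above every normal chow array. The log2 difference was 1.66 ± 0.17 (SE, n = 3 per diet), 3.15-fold, with an adjusted p of 0.00812 by limma. H2-Ab1, the beta chain of I-A, read 1.96, 2.11 and 1.94 on normal chow and 3.45, 3.88 and 3.43 under the high-Chol diet. The diets were apart by more than 1 log2 unit, and the difference was 1.58 ± 0.18 (SE, n = 3), 2.99-fold, with an adjusted p of 0.00893 by limma. H2-Eb1, the beta chain of I-E, read 0.57, 0.52 and 0.38 against 1.52, 2.08 and 1.90. The high-Chol array of slide 1 was the lowest of its diet and still above all normal chow arrays. The difference was 1.35 ± 0.19 (SE, n = 3), 2.54-fold, with an adjusted p of 0.0159 by limma.

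The H2-DM genes, whose products edit the peptides that class II molecules hold, were also higher. H2-DMb1 read -0.41, -0.13 and -0.26 on normal chow and 1.07, 1.41 and 1.23 under the high-Chol diet. The difference was 1.50 ± 0.16 (SE, n = 3), 2.83-fold, with an adjusted p of 0.00893 by limma. The diets did not overlap. H2-DMb2 read -2.68, -2.28 and -2.55 against -1.18, -1.06 and -1.23, a difference of 1.35 ± 0.16 (SE, n = 3) with an adjusted p of 0.0104 by limma. H2-DMa, the alpha chain, read -1.69, -1.59 and -1.89 against -0.72, -0.78 and -0.82, a difference of 0.95 ± 0.15 (SE, n = 3), 1.93-fold, with an adjusted p of 0.0242 by limma. H2-DMa had the smallest difference of the 6 called genes. With a normexp background the differences of H2-DMa and H2-DMb2 were 0.27 and 0.21, and with median scaling H2-DMa was not called (0.71, adjusted p = 0.122 by limma).

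The remaining class II genes were not called. H2-Oa, the alpha chain of H2-O, read -2.79, -3.09 and -3.45 on normal chow and -3.18, -3.50 and -2.75 under the high-Chol diet. The diets overlapped and the difference was -0.03 ± 0.25 (SE, n = 3), with an adjusted p of 0.948 by limma. H2-Ob, its beta chain, read -3.54, -3.77 and -4.08 on normal chow, where 2 of 3 arrays were well above background, and -4.93, -4.98 and -5.97 under the high-Chol diet, where it was not well above background on any. It did not enter the test. Its mean on normal chow was 2.09-fold above a floor taken from the dimmest probes well above background on the high-Chol arrays. Probes brighter than this floor can miss that mark, so the value is not a lower bound. H2-Ea, the alpha chain of I-E, was not well above background on any array; RefSeq lists it as a transcribed pseudogene, and C57BL/6 mice are known to make no functional I-E alpha chain.

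**Figure D1:**
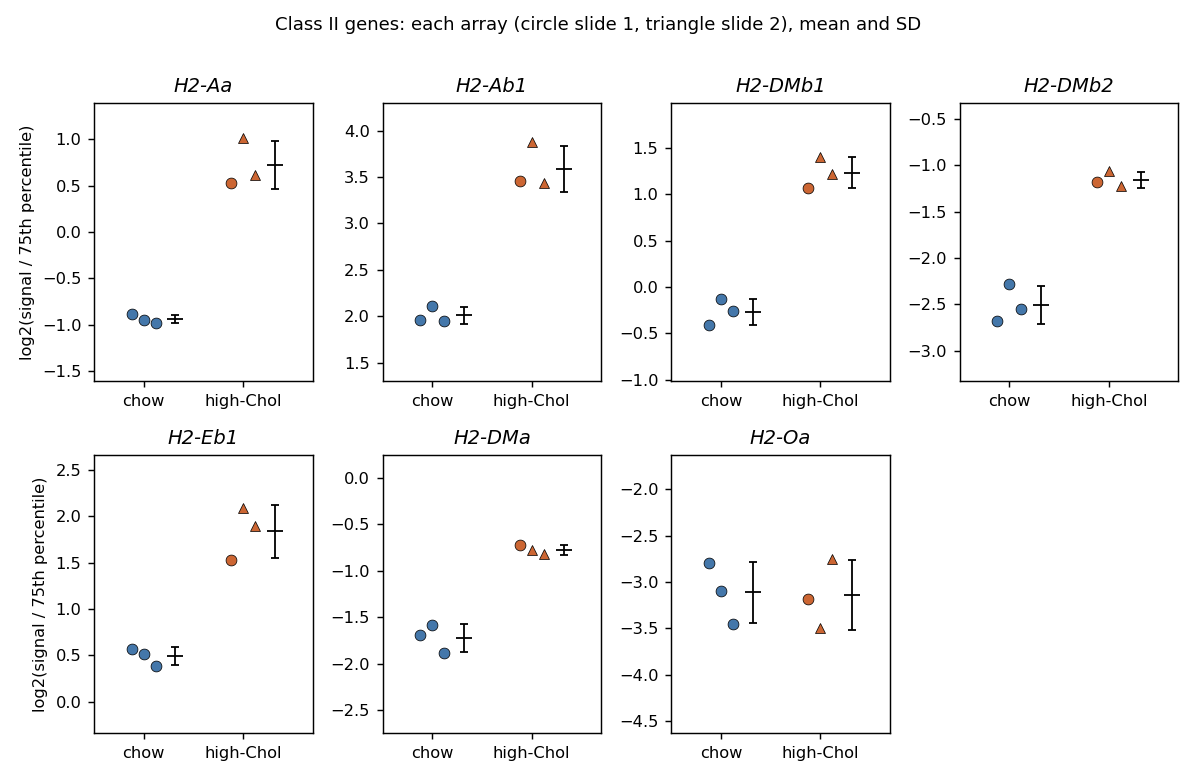
Log2 signal relative to the 75th percentile of the array for the 7 class II genes that entered the test, one panel per gene with its own axis of equal length; circles are arrays of slide 1, triangles arrays of slide 2, and bars the mean with its SD (n = 3). In 6 panels all high-Chol arrays stand above all normal chow arrays, and in the panel of H2-Oa the diets overlap.

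Several probes were measured for H2-Ab1, H2-Aa and H2-Oa. The 4 probes of H2-Ab1 differed by 1.58 to 1.75 between the diets, and the second H2-Aa probe by 1.63. The H2-Ab1 probe shown above was printed 10 times on each array. The mean of its spots was 0.57 to 0.60 on normal chow and 2.04 to 2.45 under the high-Chol diet, with an SD between spots of 0.047 to 0.14. With every probe tested by itself, 10 of the 12 class II probes were called higher, where 2.36% of all probes were. Of the pair of H2-Oa probes neither was called, and the dimmer (0.64) entered through the high-Chol arrays, with 2 of 3 normal chow arrays well above background. The second H2-DMb2 probe was not well above background on any array.

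The 6 called genes moved unevenly among the high-Chol arrays. Relative to the normal chow mean, they rose on average by 1.27 on slide 1, and by 1.58 and 1.34 at positions 2 and 3 of slide 2, while no normal chow array lay further than 0.22 from its mean. In 5 of the 6 genes position 2 of slide 2 was the highest, the exception being H2-DMa. Within arrays, the log2 ratio of H2-Aa to H2-Ab1 differed by 0.075 between the diets (exact permutation test, two-sided p = 0.5), and that of H2-Eb1 to H2-Ab1 by -0.23 (exact p = 0.3). The ratio of H2-DMa to H2-DMb1 was lower by 0.55 under the high-Chol diet, written as -0.55, and that of H2-DMa to H2-Aa differed by -0.71 (exact p = 0.1 for each). An exact test of 3 arrays against 3 cannot go below 0.1. In all, 5 such pairs were compared.

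With slide as a block, where the diets meet only on slide 1, the 6 differences were 1.00 to 1.47 and 0 of 7 genes were called (11 of all genes), and 0 were called as well with a normexp background, with no filter on dim probes and by the methods' t-test after adjustment, where 0, 26 and 4 of all genes were called higher. Among the class II genes tested, 0 were called without the normal chow array at position 2, 3 without that at position 3, 4 without that at position 1, 3 and 4 without the high-Chol arrays at positions 2 and 3 of slide 2, and 6 without that of slide 1, where in the same order 0.251%, 1.01%, 1.22%, 0.613%, 0.857% and 17.8% of all genes were called higher.

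Of 24 class I genes, 15 entered the test and 0 were called in either direction by limma, beside 2.69% of all genes called higher and 0.227% lower; 1 of them, H2-M3, had an unadjusted p under 0.05 by limma, and 2, H2-M3 and H2-Q5, by the methods' t-test, where 21.2% and 16.7% of all genes were. Their median log2 difference was -0.13, with 4 genes above 0 and 11 below, beside -0.02 over all genes tested. The sign of this median turned with the scaling: it was 0.041 after quantile normalization and 0.17 with a normexp background, and -0.37 when arrays were scaled to their median. The differences ran from -0.35 for H2-T22 to 0.57 for H2-M3.

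H2-K1, the classical class I molecule H-2K, read 8.26, 8.34 and 8.48 on normal chow and 8.20, 8.26 and 8.25 under the high-Chol diet. The arrays did not overlap, by a margin smaller than the spread of its 10 spots per array (SD 0.057 to 0.10), and the difference was -0.13 ± 0.14 (SE, n = 3; adjusted p = 0.611 by limma). All high-Chol arrays were below all normal chow arrays in 2 of the 14 class I genes with 6 values, H2-K1 and H2-Q5, where 14.0% of all genes with 6 values were. H2-D1, the classical molecule H-2D, read 6.99, 6.82 and 7.28 against 7.06, 6.76 and 6.79, a difference of -0.16 ± 0.18 (SE, n = 3; adjusted p = 0.614 by limma). H2-Q5, listed by RefSeq as a transcribed pseudogene, read 7.77, 7.73 and 7.85 against 7.66, 7.51 and 7.54, a difference of -0.22 ± 0.14 (SE, n = 3; adjusted p = 0.383 by limma). Quantile normalization turned the differences of H2-K1 and H2-Q5 to 0.041 and 0.035, and a normexp background turned all 3 above 0.

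H2-Q10, the secreted molecule of liver, read 8.21, 7.92 and 8.27 on normal chow and 8.02, 7.80 and 7.87 under the high-Chol diet. The diets overlapped, with a difference of -0.24 ± 0.16 (SE, n = 3; adjusted p = 0.41 by limma). Its 4 probes were all lower under the high-Chol diet, by -0.24 to -0.52, and none was called. In 2 of the other 3 (-0.39 and -0.29) all high-Chol arrays were below all normal chow arrays. Among all genes with a value on every array, 14.0% were separated in that direction. The probes of H2-Q10 were read for the same gene on the same arrays, so they are not independent of each other. The overlap given above is that of the brightest probe, which has the run in common with H2-Q5. H2-T23, which encodes Qa-1 and is read by receptors of NK and CD8 T cells, read 7.19, 7.04 and 7.40 against 7.03, 7.10 and 7.02, a difference of -0.16 ± 0.15 (SE, n = 3; adjusted p = 0.552 by limma). A normexp background gave 0.025 for H2-Q10 and 0.12 for H2-T23, and quantile normalization 0.0095 for H2-T23.

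H2-M3, which presents N-formylated bacterial peptides, was the class I gene with the largest positive difference among the 15. It read -0.77, -0.65 and -0.51 on normal chow and -0.03, -0.11 and -0.07 under the high-Chol diet. The diets did not overlap, and the difference was 0.57 ± 0.14 (SE, n = 3; adjusted p = 0.101 by limma), which did not pass the threshold. Its dimmer second probe differed by 0.057. The next, H2-T24 (0.51 ± 0.32, SE, n = 3) and H2-M10.2 (0.41 ± 0.28, SE, n = 3), overlapped between the diets, and H2-T24 was well above background on 1 of 3 normal chow arrays and so entered through the high-Chol diet.

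**Figure D2:**
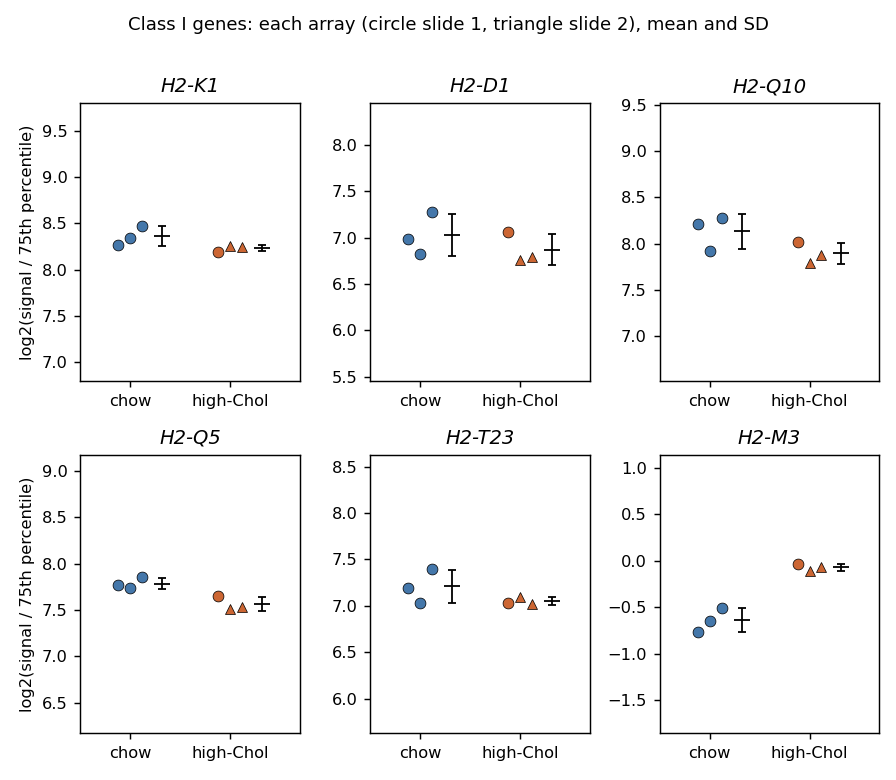
Log2 signal relative to the 75th percentile of the array for 6 class I genes, drawn as for class II with axes of the same length; circles are arrays of slide 1, triangles arrays of slide 2, and bars the mean with its SD (n = 3). Only in the panel of H2-M3, among the 6 shown, do all high-Chol arrays stand above all normal chow arrays.

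Of the other class I genes that entered the test, H2-D4, H2-Q1, H2-Q2, H2-Q7, H2-Q8 and H2-T10 differed by -0.15 to 0.013. H2-T22, a ligand of some gamma delta T cell receptors, read 3.75, 3.66 and 3.85 against 3.73, 3.19 and 3.31, so that its lower values were those of slide 2 and the high-Chol array of slide 1 lay within the normal chow range. The difference was -0.35 ± 0.18 (SE, n = 3; adjusted p = 0.316 by limma), and its second probe gave -0.37. H2-T10 had no value at position 2 of slide 2, a high-Chol array, where the spot was marked as an outlier, so its high-Chol mean stands on 2 arrays.

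A dim probe filed under H2-D1, with another accession than the brighter one, was high on slide 2 alone. The brighter probe is annotated at chr17:33361850-33362082 on the plus strand. The dim probe is annotated at chr17:34358688-34358747 on the minus strand, so it may not read H2-D1. It read -4.59, -4.72 and -4.27 on normal chow, whereas the high-Chol values were -4.83 for slide 1 and -2.07 and -1.99 for slide 2, so that slide and diet cannot be told apart there. It was well above background on 1 of 3 normal chow arrays and so entered through the high-Chol diet, and its difference of 1.57 was not called.

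The 9 class I genes that did not enter the test were H2-M1, H2-M9, H2-M11, H2-T3 and all members of the H2-M10 family, known from the vomeronasal organ, except H2-M10.2. Of these, 8 were not well above background on any array, and H2-M11 was so on 1 high-Chol array, at -2.79, with -5.83 to -7.44 on the other 5 arrays.

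**Figure D3:**
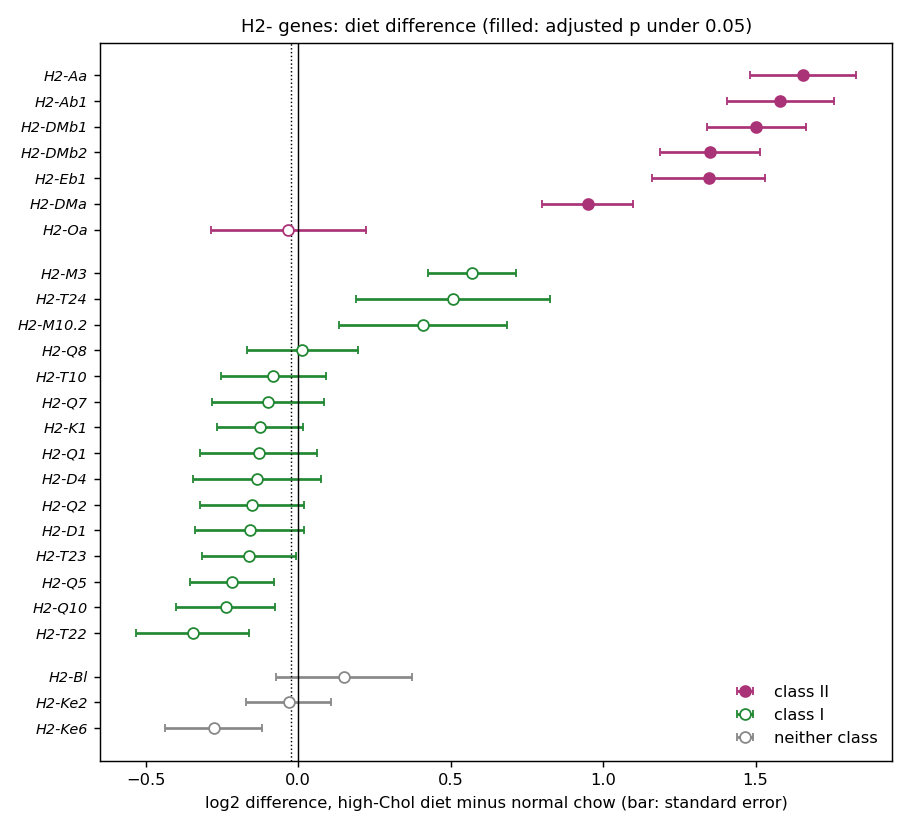
Log2 difference between the diets (high-Chol diet minus normal chow) with its standard error for the 25 H2- genes that entered the test; filled points had an adjusted p under 0.05, the solid line marks 0 and the dotted line the median of all genes tested, -0.02. The 6 filled points are class II genes between 0.95 and 1.66, and all 15 class I genes lie between -0.35 and 0.57.

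The 3 names of neither class were H2-Ke2, a prefoldin subunit, H2-Ke6, a hydroxysteroid dehydrogenase, and H2-Bl, which RefSeq lists as a transcribed pseudogene. H2-Ke2 differed by -0.03 ± 0.14 and H2-Ke6 by -0.28 ± 0.16 (SE, n = 3), and neither was called. The 3 probes of H2-Bl disagreed. The brightest differed by 0.15, and of the pair with 30 bases in common, one differed by 0.24 and the other by -1.54. The last read -1.78, -1.42 and -1.51 on normal chow and -3.39, -3.45 and -2.47 under the high-Chol diet, and was the only H2- probe called lower when every probe was tested by itself (adjusted p = 0.0404 by limma), where 0.255% of all probes were.

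**Figure D4:**
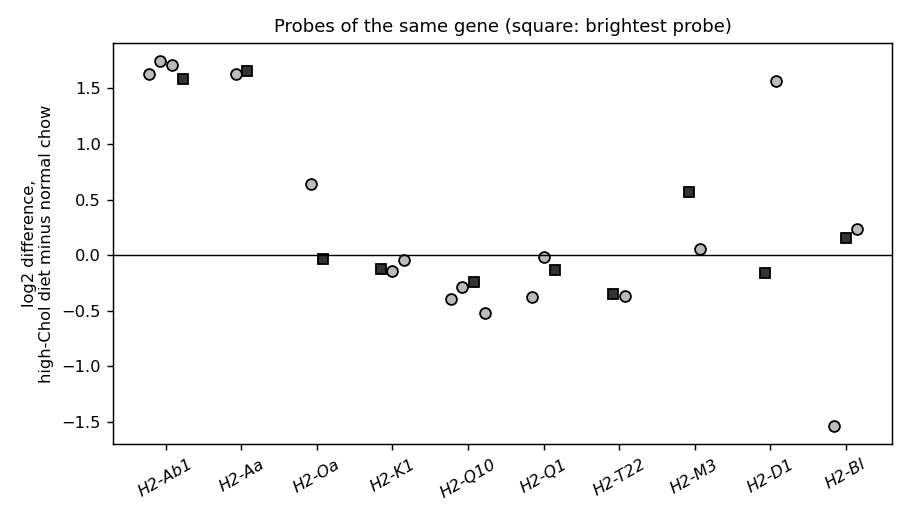
Log2 difference between the diets for every probe that entered the test, for the 10 H2- genes with more than 1 such probe; squares are the brightest probe, which stands for the gene, and circles the others. The probes of H2-Ab1 and H2-Aa lie together between 1.58 and 1.75, while those of H2-D1 and H2-Bl lie on opposite sides of 0. The point of H2-D1 at 1.57 is a dim probe filed under that name but annotated elsewhere on the chromosome. It entered through the high-Chol arrays alone.

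The class II genes lie side by side on chromosome 17, with genes of other functions among them. In the gene order of the RefSeq table (GRCm38.p6, used for order alone), 15 genes lie from H2-Oa to H2-Ea, of which 10 are class II; H2-Eb2, the tenth, has no probe of that name. The other 5, Brd2, Psmb9, Tap1, Psmb8 and Tap2, sit between H2-Oa and H2-Ab1. The 6 class II genes called higher lie on either side of Psmb9, Tap1, Psmb8 and Tap2. The 5 other genes differed by -0.29 to 0.38 and 0 of them were called, which in so few genes says nothing particular beside the 2.69% of all genes called higher and 0.227% lower.

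The sequence before the start of the class II genes is known for short elements, the X box and the Y box, that bring the class II transactivator Ciita to the promoter. RefSeq promoter windows of 300 bases (250 before to 50 after the start, GRCm38.p6) were at hand for 7 of the 9 class II genes and 18 of the 24 class I genes; H2-Ab1 was among those without. The Y box was searched as ATTGG and the core of the X box as TAGCAAC, each on both strands. The windows of 5 class II genes are shown from 120 bases before the start up to it, with these letters in capitals, because H2-Oa can then be set beside genes that were called higher.
H2-Aa, chr17:34287824-34287943, minus strand: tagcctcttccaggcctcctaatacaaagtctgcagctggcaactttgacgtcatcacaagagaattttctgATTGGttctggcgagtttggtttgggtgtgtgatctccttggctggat
H2-Eb1, chr17:34305747-34305866, plus strand: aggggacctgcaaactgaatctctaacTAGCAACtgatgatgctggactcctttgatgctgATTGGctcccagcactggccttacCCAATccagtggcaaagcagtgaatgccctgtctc
H2-DMb1, chr17:34153071-34153190, plus strand: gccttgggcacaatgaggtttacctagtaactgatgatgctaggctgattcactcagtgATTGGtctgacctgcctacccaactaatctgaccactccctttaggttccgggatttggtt
H2-DMb2, chr17:34145129-34145248, plus strand: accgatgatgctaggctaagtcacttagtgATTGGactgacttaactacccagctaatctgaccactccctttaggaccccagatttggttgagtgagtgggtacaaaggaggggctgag
H2-Oa, chr17:34092259-34092378, plus strand: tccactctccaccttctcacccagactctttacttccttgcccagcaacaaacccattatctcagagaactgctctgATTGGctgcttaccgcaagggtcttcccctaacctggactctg

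All 7 class II windows held ATTGG, where 37.4% of 32851 promoter windows did, and so did 16 of the 18 class I windows. It began 48 bases before the start in H2-Aa, 59 in H2-Eb1, 61 in H2-DMb1, 90 in H2-DMb2, 198 in H2-DMa, 43 in H2-Oa and 57 in H2-Ob. The letters were thus present in class II genes that were called higher and in H2-Oa and H2-Ob, which were not. TAGCAAC was found in 2 of 7, H2-Eb1 and H2-Ob, where 3.66% of all windows held it. The search was exact and passed over near matches in the windows shown: tggcaac in H2-Aa, tagtaac in H2-DMb1 and cagcaac in H2-Oa. It therefore cannot show that a window lacks an X box. Of the class I windows, 3 of 18 (H2-K1, H2-D1 and H2-Q7) held the kappaB sequence GGGATTCCC, found in 0.353% of all windows, and 2 (H2-T22 and H2-T23) held 2 copies of TTTC with any 2 bases between them, the core of an interferon response element, found in 3.44%. No class II window held either. A match is a description of letters, not of a bound site.

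Some genes that act with class II molecules were called higher as well. Of 9 class II accessory genes, all measured, 5 were called higher and 0 lower, with a median log2 difference of 0.97, where 2.69% of all genes were called higher and 0.227% lower. Cd74, the invariant chain, read 1.90, 1.88 and 1.74 on normal chow and 3.03, 3.50 and 3.10 under the high-Chol diet. The diets did not overlap, and the difference was 1.37 ± 0.18 (SE, n = 3), 2.59-fold, with an adjusted p of 0.0123 by limma. Its log2 ratio to H2-Aa within arrays differed by -0.28 (exact permutation test, two-sided p = 0.1, the smallest possible).

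Ciita, the master regulator of class II transcription (C2ta on the array), read -4.37, -4.22 and -4.57 on normal chow, where 2 of 3 arrays were well above background, and -2.71, -2.28 and -2.40 under the high-Chol diet. The diets did not overlap. The difference was 1.93 ± 0.18 (SE, n = 3), and it was -0.14 with a normexp background. Ciita was called, but entered the test through the high-Chol arrays alone. The other accessory genes called were Ifi30 (1.32), a thiol reductase of lysosomes, Lgmn (0.97), an endosomal protease that cuts the invariant chain, and Marchf1 (1.06), a ubiquitin ligase that takes class II molecules off the cell surface. Ctss, the protease that finishes the cutting of the invariant chain, differed by 0.89 on 5 arrays and was not called. The subunits of RFX, which binds the X box, gave 0.35 for Rfx5, 0.49 for Rfxank and -0.25 for Rfxap, and none was called. Rfx5, like Ciita, entered through the high-Chol arrays alone.

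Of 9 peptide loading genes of the class I route measured, 0 were called and the median difference was -0.20. Where 2.69% of all genes were called higher and 0.227% lower, a count of 0 in lists as short as this one and the following ones says nothing particular about them. B2m read 6.84, 7.06 and 7.09 on normal chow and 6.77, 7.09 and 7.06 under the high-Chol diet, a difference of -0.02 ± 0.16 (SE, n = 3; adjusted p = 0.944 by limma). Its diets overlapped. The peptide transporter subunits Tap1 and Tap2 differed by 0.050 ± 0.30 and -0.29 ± 0.29, and Tapbp (tapasin) by 0.027 ± 0.14 (SE, n = 3). Tap1 read 0.27, -0.75 and -0.15 against 0.25, -0.47 and -0.26, Tap2 0.57, 0.29 and 0.68 against 0.84, 0.061 and -0.23, and Tapbp 4.24, 4.29 and 4.46 against 4.40, 4.35 and 4.31. All 3 overlapped between the diets. Psmb8 and Psmb9, subunits of the immunoproteasome, read 3.25, 3.65 and 3.25 against 3.58, 3.35 and 3.19, and 3.04, 2.75 and 2.88 against 3.19, 2.93 and 2.65. They differed by -0.0078 ± 0.19 and 0.036 ± 0.19 (SE, n = 3), and 0 of 4 immunoproteasome genes measured were called. Of 6 class I-like genes with other names, 0 were called, with a median of -0.047. The signs of B2m, Tap1, Tap2, Tapbp, Psmb8 and Psmb9 each turned under at least 1 other setting.

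Among genes around antigen presentation, the calls below stand beside 2.69% of all genes called higher. Of 5 costimulatory genes measured of 7, 4 were called higher: Cd83 (2.50), Icosl (1.42), Cd86 (1.15) and Cd40 (0.99). Of these, Icosl and Cd40 entered through the high-Chol arrays, with 2 of 3 normal chow arrays well above background, as did Klrd1 below. Of 7 measured genes listed as receptors of MHC molecules, 3 were called higher: Lilrb4 (2.80), Klrd1 (1.59) and Pirb (0.90). Whether the product of mouse Lilrb4 binds MHC molecules is not given in the sources used here. Cd4 and Cd8b1, the coreceptors of T cells for class II and class I, differed by -0.012 and 0.12. Of 9 interferon gamma signalling genes, 2 were called higher, Irf8 (1.10) and Ifng itself. Ifng was not well above background on any normal chow array. Its high-Chol mean was 1.40-fold above a floor taken from the dimmest probes well above background on those arrays. Probes brighter than this floor can miss that mark, so the value is not a lower bound. Irf1, a transcription factor induced by interferon gamma, differed by 0.44 and was not called. Over these 7 lists 14 genes were called higher and 0 lower, of which 5 (Ciita, Ifng, Icosl, Cd40 and Klrd1) entered through the high-Chol arrays alone. With the filter on all 6 arrays the count was 10, where 2.36% of all genes were called higher. It was 7 without the normal chow array at position 1, 2 without that at position 2, 4 without that at position 3, and 4 and 5 without the high-Chol arrays at positions 2 and 3 of slide 2, and 18 without that of slide 1, beside the shares of all genes given for class II with the same array left out. With slide as a block it was 0, where 0.0658% of all genes were called higher.

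**Figure D5:**
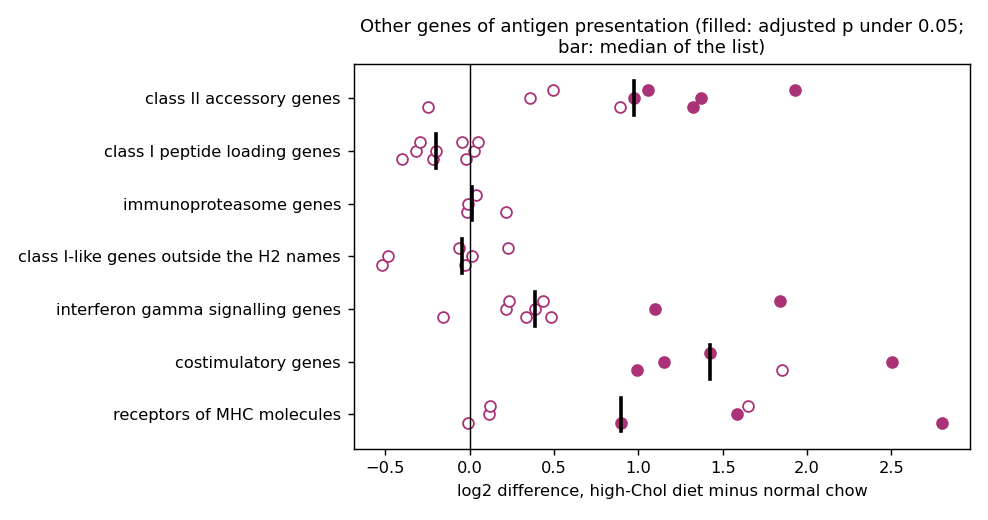
Log2 difference between the diets for each measured gene of 7 lists of antigen presentation genes; filled points had an adjusted p under 0.05 and bars mark the median of the list. Filled points are found among class II accessory, interferon gamma, costimulatory and receptor genes, and none among class I loading, immunoproteasome or class I-like genes.

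Markers of cells that carry class II molecules, and of others in liver, were read on the same arrays, where 2.69% of all genes were called higher. In liver RNA more cells of a type and more RNA per cell cannot be told apart. Of 11 macrophage markers, all measured, 4 were called higher: Marco (1.83), Lyz2 (1.78), Cd68 (1.74) and C1qc (0.93). The mean level of the 10 with a value on every array was 2.55 to 2.73 on normal chow and 3.36 to 3.47 under the high-Chol diet. Of the 11, 10 lay above 0, and in 8 of the 10 with a value on every array all high-Chol arrays were above all normal chow arrays, where 11.9% of all genes with 6 values were. Among those not called, C1qb differed by 0.61, C1qa by 0.59, Vsig4 by 0.58, Clec4f by 0.41 and Adgre1 by 0.71, Csf1r, a defining receptor of macrophages, by 0.28, and Cd163 by -0.91. Of 6 measured dendritic cell markers, 1 was called higher (Itgax, 3.27). Their mean level was -3.30 to -3.24 against -2.79 to -2.42, but 4 of the 6 (Itgax, Flt3, Clec9a and Ccr7) entered through the high-Chol arrays alone. The 5 others were not called, with Zbtb46 at -0.57, Flt3 at -0.26, Xcr1 at 0.39, Clec9a at 0.40 and Ccr7 at 0.70, and Cd209a and Siglech were not well above background on any array.

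Of 6 measured B cell markers, 0 were called; 3 lay above 0 and 3 below, and their mean level of -3.52 to -3.11 on normal chow overlapped that of -3.38 to -2.92 under the high-Chol diet. Of these 6, Pax5 and Cr2 entered through the high-Chol arrays alone and Cd79a through the normal chow arrays alone. Blk was not well above background on any array. Of 7 measured T and NK cell markers, 1 was called higher (Nkg7, 1.18), with 6 above 0 and a median of 1.18. In 5 all high-Chol arrays were above all normal chow arrays, where 11.9% of all genes with 6 values were. The mean level of the 7 was -3.59 to -3.06 against -2.702 to -2.002. However, 5 of the 7 (Cd3d, Cd3g, Cd2, Gzma and Klrb1c) entered through the high-Chol arrays alone, among them every gene without overlap except Nkg7. Of 4 measured neutrophil markers, 2 were called higher (S100a8, 3.21, and S100a9, 2.90), with a mean level of -2.63 to -2.39 against -0.92 to 0.21 that includes Ltf, which entered through the high-Chol arrays alone. Of 7 endothelial and 7 hepatocyte markers measured, 0 were called, with mean levels of 0.70 to 0.84 against 0.94 to 1.03 and, over 6 of the hepatocyte markers, of 6.74 to 7.04 against 6.71 to 6.86. The part of any of these cell types in the class II result was not tested.

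The authors' own normalized table, with 1 value per probe and diet and no spread, held 41 of the 55 H2- probes. The medians of its columns were -0.0019 for normal chow and -0.27 for the high-Chol diet, and its differences followed those of the spot intensities with a slope of 1.00 and an offset of -0.24 across probes. How its values were centred is not given in the sources used here. On its log2 scale, 10 of 11 class II probes were above 0, with a median difference of 1.34, and 21 of 25 class I probes were below 0, with a median of -0.38, beside a median of -0.27 over all its probes.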

How the data were processed

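RNA of 6 liver samples, 3 per diet, was labelled with Cy3 and hybridized to one-colour Agilent 4x44K arrays. The deposited scanner files come from Agilent Feature Extraction (9.1 in the submitters' processing notes, 9.5 for slide 1 and 9.1 for slide 2 in the file headers), whose intensity values are background-subtracted and not normalized between arrays. A further deposited table holds log2 values that the authors normalized and filtered in Gene Spring GX, with 1 value for each diet, and was used for differences alone.

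The processed intensity was set on a log2 scale, less the log2 of the 75th percentile over the 43379 non-control spots of its array. Control spots (1639) and outlier spots (75 to 196 per array) were left out, saturated spots kept, and spots of a probe averaged. A probe entered when all 3 arrays of 1 diet or of both had it well above background, and a gene was read from its brightest such probe. The diets were compared with limma 3.58.1 (lmFit and eBayes, no covariate) in R 4.3.3, with Benjamini-Hochberg adjustment over all 16726 genes and a threshold of 0.05. The step was tested on simulated data. The number of arrays limits the precision. Genes named with values on every array were the class II genes tested, H2-K1, H2-D1, H2-Q10, H2-T23, H2-M3, further class I genes called or without overlap, and Cd74, Ciita, B2m, Tap1, Tap2, Tapbp, Psmb8 and Psmb9 (Nlrc5 had no probe by that name); H2-T22, H2-Ob, a second H2-D1 probe, a H2-Bl probe and list members that were not called were named after their values were seen. Of 14 gene lists, older symbols were matched through the RefSeq table of GRCm38.p6, which also gave the promoters. The members and lists were chosen with earlier results of these data known. Alternatives were a normexp background (offset 50), quantile normalization, median scaling with a floor of 5, no filter, every probe by itself, a filter on all 6 arrays, slide as a block, averaging the probes of a gene, each array left out, the methods' t-test and the authors' values. Sequences were read with Python 3.11.15 and pandas 2.3.3, and plots drawn with matplotlib 3.10.9.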

Additional observations from a re-analysis of the deposited data

How the results depend on the processing

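No paired analysis was possible. The replicate numbers of each diet are given together and not tied to arrays, and nothing says that a shared number marks a shared experiment. The 6 class II genes called higher stayed above 0 in every alternative run, while their number called (6 of 7) was 0 with a normexp background (4 of 7 at an unadjusted p under 0.05), with no filter, with slide as a block (6 of 7 unadjusted) and by the methods' t-test after Benjamini-Hochberg adjustment (6 of 7 before it), 10 of 12 with every probe by itself, and 0 to 6 with each array left out. For H2-Aa the adjusted p ran from 0.00343 to 1 over 15 settings. The class II median was 0.98 with normexp, 1.11 with median scaling and in the authors' values, 1.54 with every probe by itself, and 1.30 to 1.50 with each array left out. The number of class I genes called was 2 by the methods' t-test without adjustment, and 0 in every other setting. The class I median was 0.17 with normexp, 0.041 with quantile normalization, and -0.37 with median scaling and in the authors' values. The number of pathway genes called was 0 with normexp, with slide as a block and by the adjusted t-test, 1 with no filter, 22 by the unadjusted t-test, and 2 to 18 with each array left out. Over all genes 0 were called with normexp (305 unadjusted), 26 with no filter and 11 with the block.

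Differences turned sign as follows. With normexp H2-K1 gave 0.20, H2-D1 0.21, H2-Q10 0.025, H2-T23 0.12, H2-Q5 0.067, Ciita -0.14, B2m 0.28 and Psmb8 0.34. With quantile normalization H2-K1 gave 0.041, H2-T23 0.0095, H2-Q5 0.035, B2m 0.13 and Psmb8 0.13. With the probes of a gene averaged, H2-Oa gave 0.31, H2-D1 0.70, B2m 0.16, Tapbp -0.15 and Psmb8 0.10. That H2-D1 value includes the dim probe annotated elsewhere on the chromosome. With slide as a block H2-D1 gave 0.031, Tap2 0.32 and Psmb8 0.20. Median scaling and the authors' values gave Tap1 -0.19 in each, Tapbp -0.21 and -0.22, and Psmb9 -0.20 and -0.21. With each array left out, H2-Oa ran from -0.23 to 0.15, B2m from -0.10 to 0.081, Tap1 from -0.22 to 0.29, Tapbp from -0.017 to 0.091, Psmb8 from -0.11 to 0.12 and Psmb9 from -0.097 to 0.17. The cause was not tested.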
